A study of Mus musculus with 4 samples.

Results

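The baseline transcriptome of wild-type neural stem cells (NSCs) was described from the 2 +/+ samples of a study of 4 RNA-seq samples. A gene was counted as expressed, and is called a member here, when it was a named protein-coding gene with at least 1 TPM in both +/+ samples. TPM is a level scaled for transcript length and to a fixed sample total, so levels of different genes in a sample can be set side by side. Of 15595 named protein-coding genes with a row in the table, 10698 met the rule, which is 68.6%. The counts of members in the gene lists below are to be read beside this share. No row of the table was 0 in all 4 samples. A gene at 0 in all 4 therefore has no row, and the total and the list counts leave such genes out. Each culture was grown from the periventricular brain region, with the ventricular and subventricular zones, of an individual newborn C57BL/6 mouse of +/+ genotype. The medium held the N-2 supplement, BSA, EGF at 20 ng/ml and 20 ng of FGF2. The growth protocol in the labels gives postnatal day 1 for all cultures, whereas the age entries give day 1 for +/+ replicate 1 and day 2 for replicate 2. The libraries were stranded and made from polyadenylated RNA. Cultures of this kind are mixtures of stem cells and their progeny kept in mitogens, so a level in the RNA cannot separate the number of expressing cells from the RNA made per cell.

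As background, the stem cells of the newborn ventricular wall descend from radial glia. They share many genes with astrocytes, among them glutamate transporters and fatty acid binding proteins, and divide in response to EGF and FGF2. In the brain they carry regional transcription factors that record the wall from which they came, such as Lhx2 in the forebrain, Emx2 and Pax6 in the pallium, and Dlx2 and Gsx2 in the subpallium. Their progeny are neurons, astrocytes and oligodendrocytes.

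Both samples held all of the stem cell markers, and they stood apart from each other in some regional genes. Lhx2, a transcription factor of the forebrain, was at 37.4 TPM in replicate 1 and at 5.6 TPM in replicate 2, whereas Nr2f2, of caudal and ventral forebrain, was at 4.66 and 22.4 TPM. Results on region are therefore given for each sample. Chd5, the gene deleted in the other samples of the study, was at 0.39 and 0.37 TPM in replicates 1 and 2 and was no member. Xist, the non-coding RNA of the inactive X chromosome, was at 403 and 215 TPM, and the Y-linked genes Eif2s3y and Uty were listed at 0 in both samples. Named protein-coding genes held 69% and 65.1% of the TPM in replicates 1 and 2, and rows whose names matched no annotated gene held 28.1% and 32.4%. TPM keeps no record of reads, so the depth is unknown and the error of a value is the spread between 2 samples. No difference was tested, since each comparison between the samples is 1 against 1. All SDs below are over n = 2.

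The 5 NSC markers were all expressed, at levels from 74.7 to 5892 TPM. Fabp7, the brain fatty acid binding protein of radial glia, was at 5892 and 4316 TPM (5104 ± 1114, SD) and was the second most abundant protein-coding gene. Vim, which encodes the intermediate filament vimentin, was at 1354 and 1502 TPM (1428 ± 104.5). Sox2, a transcription factor that maintains neural progenitors, was at 439 and 442 TPM (440.3 ± 1.89). These 3 markers followed each other in the same order in both samples, with no overlap. Egfr, the EGF receptor, was at 139 and 129 TPM (134.1 ± 6.89). Nes, which encodes nestin, was lowest at 74.7 and 83.2 TPM (79 ± 6). Vim exceeded Nes 18.1-fold in replicate 1 and 18-fold in replicate 2, so the ratio of the filament genes was nearly equal in the 2 cultures.

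The sequence upstream of the marker genes is shown because the start regions of members and of genes that were no members differed in CG content, as described next. The 250 bases before the RefSeq start of 4 markers are printed, from GRCm38.p6, plus strand. In Fabp7, Sox2 and Nes the capitals mark each CG, and in Vim they mark TATAAA.
Fabp7, chr10:57784673-57784922: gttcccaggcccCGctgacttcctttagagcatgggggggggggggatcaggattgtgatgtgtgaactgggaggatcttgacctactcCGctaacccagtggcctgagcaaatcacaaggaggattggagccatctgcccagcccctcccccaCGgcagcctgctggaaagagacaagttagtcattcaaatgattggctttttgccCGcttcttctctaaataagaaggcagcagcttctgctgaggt
Sox2, chr3:34649745-34649994: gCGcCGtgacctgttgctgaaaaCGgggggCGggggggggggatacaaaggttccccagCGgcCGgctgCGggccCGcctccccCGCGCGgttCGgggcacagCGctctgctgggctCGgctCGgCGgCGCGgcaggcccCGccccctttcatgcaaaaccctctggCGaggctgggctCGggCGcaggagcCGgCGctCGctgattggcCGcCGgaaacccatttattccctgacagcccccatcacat
Nes, chr3:87970843-87971092: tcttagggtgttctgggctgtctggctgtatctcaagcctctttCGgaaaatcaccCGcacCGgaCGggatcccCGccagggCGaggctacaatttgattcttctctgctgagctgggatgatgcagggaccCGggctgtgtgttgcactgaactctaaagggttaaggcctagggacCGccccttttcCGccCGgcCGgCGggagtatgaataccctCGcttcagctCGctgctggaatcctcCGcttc
Vim, chr2:13574061-13574310: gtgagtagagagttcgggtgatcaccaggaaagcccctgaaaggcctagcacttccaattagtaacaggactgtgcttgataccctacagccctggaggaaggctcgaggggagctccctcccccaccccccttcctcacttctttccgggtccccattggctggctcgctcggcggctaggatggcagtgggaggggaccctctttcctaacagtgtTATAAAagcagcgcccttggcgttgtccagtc
The most abundant marker had the fewest CG letters: Fabp7 held 4 of them, against 27 in Sox2 and 15 in Nes. Vim held 8 and Egfr 11. TATAAA was found in Vim alone among the 5 markers, beginning at position -32 from the start.

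Over all genes, the same window held more CG in members than in genes that were not expressed. The RefSeq table had a promoter for 12256 of the 15595 genes, and the most upstream start of each was used. The median number of CG was 5 in the 663 promoters of genes listed at 0 in both samples and 8 in the 3005 of genes above 0 that were no members. Since no row was 0 in all 4 samples of the study, the genes at 0 here were above 0 in a Chd5-/- sample. It was 16 in members with a mean under 10 TPM, 17 from 10 to 100 TPM, 18 from 100 to 1000 TPM and 15 in the 43 promoters of genes at 1000 TPM or more. The step in CG content thus lay between genes that were no members and members, and little of it lay among the expressed classes. At least 10 CG were held by 24.7% of promoters at 0 in both samples. They were held by 83.5% of those at 100 to 1000 TPM and by 76.7% of those at 1000 TPM or more. The share was 67.5% over the 12256 named protein-coding genes with a promoter and 38.2% over all 27025 promoters of the table. GGGCGG, the GC box, was searched on both strands. It was held by 31.2% of promoters at 0, by 63.2% at 100 to 1000 TPM and by 51.2% at 1000 TPM or more. Its share was 55.8% over the named protein-coding genes and 33% over the whole table. Each GGGCGG also holds a CG, so these shares overlap. TATAAA was searched on the gene's strand. It was held by 9.65% of promoters at 0, by 3.72% at 100 to 1000 TPM and by 14% at 1000 TPM or more. Its share was 4.48% over the named protein-coding genes and 8.13% over the whole table. The 57 members at 1000 TPM or more also had shorter transcripts, with a median of 1916 bases against 3716 at 10 to 100 TPM.

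Most of the messenger RNA came from a small part of the members. Of the 10698 members, 3614 had a mean under 10 TPM, 5626 had 10 to 100, 1401 had 100 to 1000 and 57 had more. The last 2 classes held 50.5% and 16.8% of the protein-coding TPM. The 20 most abundant protein-coding genes held 6.78% and 6.11% of all TPM. Eef1a1, the translation elongation factor, led with 18886 and 15829 TPM. It has many processed copies in the genome, as ribosomal protein genes do, so how their reads were shared cannot be told from the table. The ribosomal protein genes among the 20 were Rpl39, Rps4x, Rpl23a, Rpl30 and Rps24. Tpt1, the translationally controlled tumor protein, was at 4738 and 4435 TPM. The others were of several kinds. Laptm4b, a lysosomal membrane protein, was at 2916 and 2914 TPM. Tmsb4x, which binds actin monomers, was at 3112 and 2364 TPM, and Txn1, thioredoxin, was at 2220 and 2903 TPM. Glial genes were among the 20 beside Fabp7: Slc1a3, a glutamate transporter, at 1871 and 1620 TPM, Gpm6b, a proteolipid of glial membranes, at 1916 and 2326 TPM, and Dbi, which binds acyl-CoA, at 2195 and 2127 TPM. The secretory genes Cpe, carboxypeptidase E, and Serpine2, a protease inhibitor, were higher in replicate 2, at 2903 against 1904 TPM and at 2147 against 1633 TPM. Ppia, Atp5g3, Ndufa4 and Usmg5 made up the rest.

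**Figure D1:**
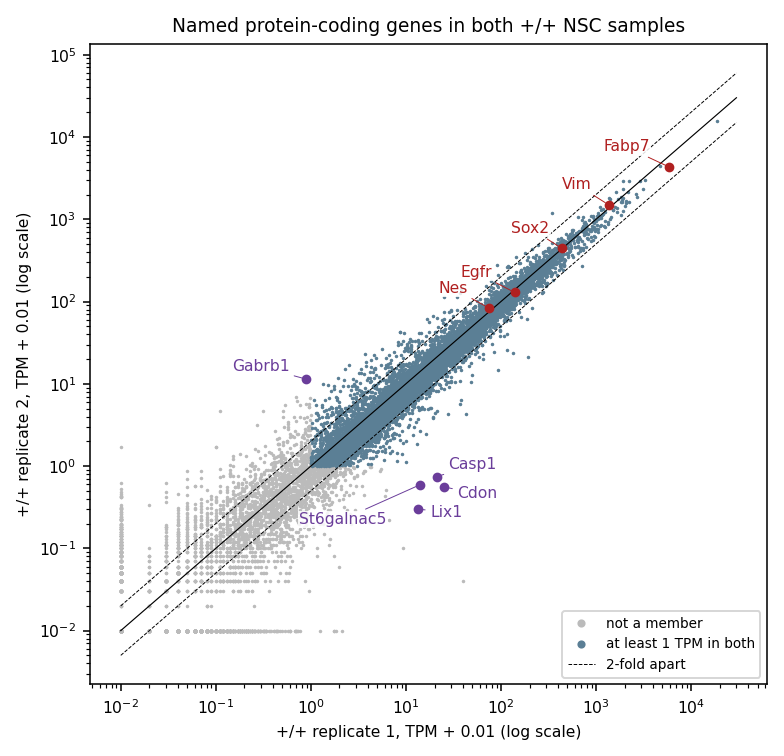
TPM plus 0.01 of each named protein-coding gene in +/+ replicate 1 (x axis) and replicate 2 (y axis), both on log scales, with members in blue, other genes in grey, lines at equality and at 2-fold, the 5 stem cell markers in red and 5 genes at 10 TPM or more in 1 sample and under 1 TPM in the other in purple. The markers lie near the line of equality, whereas Cdon lies far below it, at 24.91 against 0.55 TPM.

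The ranks of the members were alike in the 2 cultures, as the plot of the replicates shows. Spearman's rho across the 10698 members was 0.976, a description across genes, which are not independent replicates. The values of 81.7% of members lay within 1.5-fold of each other. On log2(TPM + 1), 170 members were 2-fold or more higher in replicate 1 and 170 in replicate 2, each 1.59% of members. The small differences were not balanced: 66.9% of members were higher in replicate 1, with a median difference of -0.14 (replicate 2 minus replicate 1). That difference moved with the GC content of the transcript. Its median was 0.05 in the tenth of members with the lowest GC and -0.34 in the tenth with the highest. Median-of-ratios scaling, which raised replicate 2 by 1.12-fold relative to replicate 1, took the median over all members to 0.

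The members farthest apart were of mixed function. Higher in replicate 1 were Psmb5, a proteasome subunit, at 191.9 against 20.9 TPM, and Car3, a carbonic anhydrase, at 42.7 against 4.31 TPM. Kcnj10, the inward rectifier potassium channel of glia, at 93.5 against 14.9 TPM, Lhx2, a forebrain transcription factor, at 37.4 against 5.6 TPM, and Sparcl1, a matrix protein of astrocytes, at 132.3 against 23.6 TPM, followed. Higher in replicate 2 were Prelid2 at 16.8 against 2.48 TPM and 3110035E14Rik at 22.9 against 3.72 TPM. Nrxn3, a neurexin of synapses, at 15 against 2.25 TPM, Gabra4, a GABA-A receptor subunit, at 10.02 against 1.32 TPM, and Gpnmb, a glycoprotein, at 42.2 against 8.64 TPM, completed the 5. Outside the members, 5 genes were at 10 TPM or more in replicate 1 and under 1 TPM in replicate 2, and 1 gene the other way. Among them, and named after their values were seen, were Cdon at 24.91 against 0.55 TPM, Casp1 at 21.05 against 0.73, Lix1 at 13.52 against 0.29 and St6galnac5 at 13.94 against 0.58, and in the other direction Gabrb1 at 11.44 in replicate 2 against 0.87 in replicate 1.

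Progenitor genes were expressed nearly throughout. Of 25 radial glia and progenitor genes, 23 were members, or 92% against 68.6% of all named protein-coding genes. The highest after Slc1a3 were Ptprz1, a receptor phosphatase and proteoglycan, at 1327 and 1500 TPM, and Ednrb, the endothelin B receptor, at 1115 and 1288 TPM. Sox9, a glial and stem cell transcription factor, was at 90.6 and 115 TPM. Hes1, a target of Notch, was at 46.1 and 39.2 TPM. Hopx, found in outer radial glia, was at 10.5 and 27.6 TPM. The 2 genes outside were Thbs4, a thrombospondin, at 0.04 and 0.06 TPM, and Prom1, which encodes Cd133, at 0.99 and 4.15 TPM. Prom1 missed the threshold in replicate 1 by 0.01 TPM.

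Genes linked with quiescent stem cells and genes of the cell cycle were expressed side by side. Of 21 quiescence genes, 19 were members. Some of these are also in the progenitor list or in the astrocyte list below, such as Slc1a3, Apoe and Aldoc, so the counts overlap. After Cpe and Slc1a3 came Apoe, the lipid carrier, at 463 and 328 TPM, and Cst3, a protease inhibitor, at 453 and 240 TPM. Id2, an inhibitor of basic helix-loop-helix factors, was at 158.6 and 290.2 TPM. Vcam1, an adhesion molecule of quiescent stem cells, was at 18 and 33.2 TPM. All 25 proliferation genes were members, and each of the 25 was higher in replicate 1, where 66.9% of all members were. Pcna, the replication clamp, was at 359 and 290.5 TPM. Top2a, a topoisomerase of dividing cells, was at 140.5 and 91.1 TPM. Mki67, which encodes the Ki-67 antigen, was at 48.2 and 23.5 TPM. The median difference of the 25 genes was -0.73, against -0.34 in the tenth of members with the highest GC. After the median of each GC decile was subtracted it was -0.62, and all 25 genes were still higher in replicate 1, as they were with median-of-ratios scaling.

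Cyclins and inhibitors of cyclin-dependent kinases were both abundant. Of 21 genes of this list, 18 were members. Ccnd1, cyclin D1, was at 710 and 984 TPM and exceeded Ccnd2 2.17-fold and 3.02-fold. Cdkn1a, the inhibitor p21, was at 338 and 358 TPM, and Cdkn1b, the inhibitor p27, at 127 and 120.1 TPM. Cdkn2a, the locus of p16 and p19Arf, was at 2.68 and 5.22 TPM. Cdkn1c at 0.18 and 0.15 TPM and Mycn at 0.71 and 0.27 TPM were no members. So Ccnd1 and Ccnd2 led the cyclins, and p21 led the inhibitors, in each sample. Ccnd3, the remaining D-type cyclin, was lower, at 9.59 and 7.73 TPM.

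Astrocyte genes were present as widely as progenitor genes, and some of them differed between the cultures. Of 20 astrocyte genes, 19 were members. Glul, glutamine synthetase, was at 327 and 237 TPM, and Aldoc, the aldolase of astrocytes, at 293 and 216 TPM. Gfap, the filament of mature astrocytes, was low, at 13.9 and 14.3 TPM, and Vim exceeded it 97.5-fold and 105-fold. Aqp4, the water channel of astrocyte endfeet, was at 25.2 and 114.9 TPM, and Aldh1l1, a folate enzyme that marks astrocytes, at 19.4 and 66.5 TPM. Kcnj10 and Sparcl1 went the other way. Of the 19 astrocyte members, 2 were thus 2-fold or more higher in replicate 1 and 5 were so in replicate 2. Over all members the share was 1.59% in each direction. Gjb6, connexin 30, at 0.2 and 0.92 TPM, was the only listed astrocyte gene under 1 TPM.

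The early regulators of the oligodendrocyte lineage were high and its myelin genes low. Of 18 genes of the lineage, 13 were members, or 72.2% against 68.6% of all named protein-coding genes. Olig1 was at 387 and 453 TPM and Olig2 at 155.6 and 162.1 TPM, and both encode lineage transcription factors. Cnp, a membrane enzyme of oligodendrocytes, was at 36.5 and 51.4 TPM. Precursor genes were lower and differed between the cultures: Pdgfra, the PDGF receptor of precursors, was at 13 and 1.84 TPM, and Sox10 at 6.04 and 1.46 TPM, whereas Nkx2-2 was at 4.88 and 20.4 TPM. Mbp, a myelin protein, was at 1.66 and 1.26 TPM. Mag, Mobp and Opalin, also of myelin, were at 0.11 TPM or less.

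Neuronal genes were expressed in part. Of 22 genes, 8 were members, or 36.4% against 68.6% of all genes. Map2, a microtubule-associated protein used as a neuron marker, was at 503 and 516 TPM. Tubb3, the neuronal beta-tubulin, was at 0.33 and 0.29 TPM, so Map2 exceeded it 1520-fold and 1780-fold. Ncam1, an adhesion molecule that progenitors also express, was at 91 and 87.4 TPM and Gap43, a growth cone protein, at 47.7 and 28 TPM. Dcx, a marker of migrating young neurons, was at 2.37 and 0.28 TPM. Of genes of mature neurons, Syp, a synaptic vesicle protein, was at 4.59 and 2.63 TPM. Several others were under 1 TPM in both samples: Snap25, a synaptic vesicle fusion protein, at 0.43 and 0.32 TPM, Rbfox3, which encodes NeuN, at 0.07 and 0, and Nefl, a neurofilament, at 0.03 and 0.24 TPM. Map2 and Ncam1 therefore stood out from the other listed neuron genes, which were at 47.7 TPM or less. Among 9 genes of intermediate progenitors and cortical neurons the only member was Cux1, at 30.6 and 22.5 TPM. Eomes, which encodes Tbr2, was listed at 0 in both samples, and Tbr1 was at 0.02 and 0 TPM.

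Markers of other cells of the brain were at or near 0. Of 4 microglia genes with a row, only Cd68, a lysosomal protein, was a member, at 14.4 and 12.3 TPM, and the defining genes Aif1, at 0 in both samples, and Itgam, at 0.07 and 0.02 TPM, were not. Of 9 endothelial genes only Flt1, a VEGF receptor, passed, at 4.29 and 19.4 TPM. Pecam1, an adhesion protein of vessels, was at 0.34 and 0.06 TPM and Kdr at 0.28 and 0.09 TPM. Of 16 mural and fibroblast genes, Pdgfra and Thy1 passed, whereas Col1a1, Dcn and Lum were listed at 0 in both samples and Pdgfrb was at 0.01 and 0.02 TPM. Of 13 ependymal genes, 2 passed: Ccdc39 at 3.05 and 4.31 TPM and Foxj1, the regulator of motile cilia, at 1.52 and 1.71 TPM. Of 8 choroid plexus genes, Enpp2 at 65 and 23.2 TPM, Otx2 and Sostdc1 passed, and the defining gene Folr1 was listed at 0. Of 7 pluripotency genes only Klf4 passed, at 4.87 and 9.06 TPM, and Lin28a was listed at 0. The summed TPM of the lists came largely from these few passing genes.

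**Figure D2:**
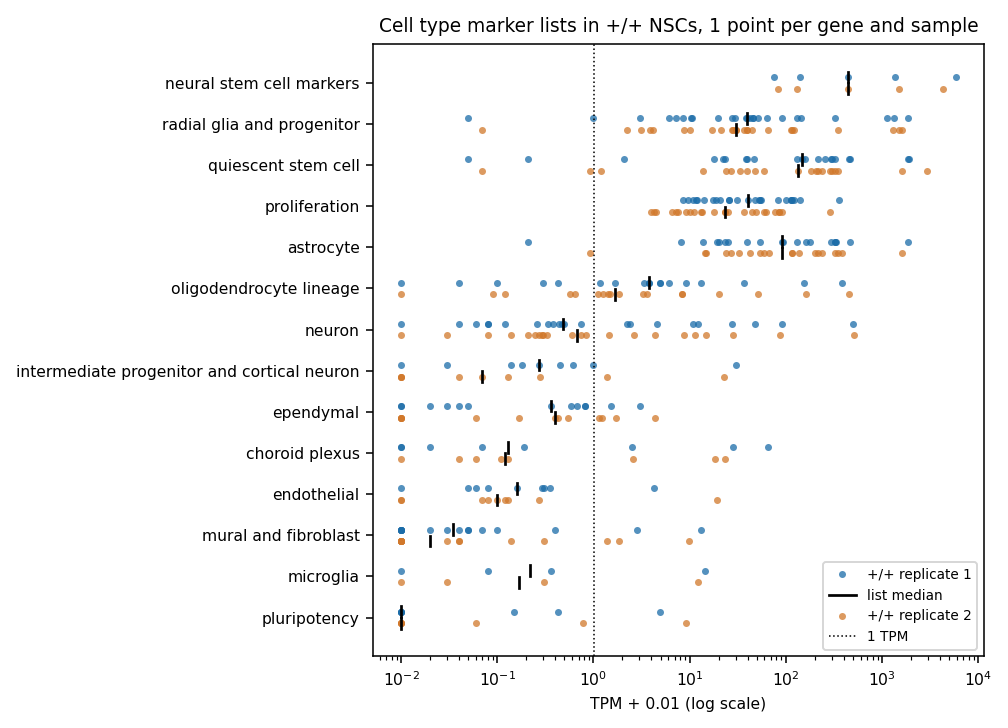
TPM plus 0.01 (x axis, log scale) of the genes of 14 cell type lists (y axis), with 1 point per gene in +/+ replicate 1 (blue) and replicate 2 (orange), black bars at the list medians and a dotted line at 1 TPM. The stem cell, progenitor, quiescence, proliferation and astrocyte lists have medians above 20 TPM, whereas the lists from neuron downward have medians under 1 TPM.

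The lists with medians under 1 TPM in both samples, as plotted, were those of neurons, cortical neurons, ependymal, choroid plexus, endothelial, mural and microglial cells, and of pluripotency. The median of the neuron list was 0.47 and 0.66 TPM, and that of the astrocyte list 92.1 and 90.7 TPM.

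Regional genes showed a mixed picture within each culture and a difference between them. Of 61 regional genes, 19 were members. On log2(TPM + 1), 7 of the 61 were 2-fold or more higher in replicate 1 and 4 in replicate 2, against 2.82% of all 15595 genes in either direction. Shared by the cultures were Six3, a transcription factor of the rostral forebrain, at 38.1 and 37.6 TPM, Nr2f1 at 23.9 and 34.6 TPM and Otx2, of forebrain and midbrain, at 28.3 and 18.3 TPM. Pax6 was at 27.7 and 30 TPM. Of 12 dorsal midline genes, 5 were members, or 41.7% against 68.6% of all named protein-coding genes. The median of that list was 0.24 and 0.485 TPM. Its 5 members were the Zic genes, which are high in the dorsal midline and septum. The Zic genes were led by Zic1 at 43.2 and 36.1 TPM and Zic2 at 17.8 and 25.4 TPM. These genes were set together for their like values. Of the 7 members of the rostral list, 1 was 2-fold or more higher in replicate 1 and 2 were so in replicate 2.

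Other forebrain genes were higher in replicate 1. Lhx2, which patterns the cortex, was at 37.4 TPM in replicate 1 and 5.6 in replicate 2. Emx2, of the pallium, was at 29.6 and 12.1 TPM. Gad1, an enzyme of GABA synthesis, was at 27.9 and 4.34 TPM. It exceeded its paralog Gad2 75.3-fold in replicate 1 and 2.99-fold in replicate 2. By these ratios Gad2 was under 1 TPM in replicate 1, where the ratio is unsure, and was higher in replicate 2, unlike Gad1. Also higher in replicate 2 was Nr2f2, of caudal and ventral forebrain, at 4.66 and 22.4 TPM. Hox genes mark the hindbrain and spinal cord. Of 10 Hox genes, 9 were higher in replicate 2 and 0 in replicate 1, where 33.3% of all named protein-coding genes were higher in replicate 2. Hoxa5, at 1.42 and 4.8 TPM, was the only member among the 10. The median of the 10 Hox genes was 0.09 and 0.205 TPM, levels at which the unknown depth limits what can be said. Of these regional differences, that of Lhx2 was -2.54 on log2(TPM + 1) and -2.20 after the median of its GC decile was subtracted. That of Emx2 was -1.22 and -0.99, that of Nr2f2 was 2.05 and 2.07, and that of Hoxa5 was 1.26 and 1.45.

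Genes of the walls around the lateral ventricle were otherwise unevenly held. Subpallial Olig2 was a member, as above, and Nkx2-1, of the medial ganglionic eminence, was at 2.6 and 1.39 TPM. Dlx1, Dlx2, Gsx1 and Gsx2, which pattern the subpallium, were all under 1 TPM in both samples, with Dlx2 at 0.08 and 0 and Gsx2 at 0.05 and 0. None of 12 midbrain and anterior hindbrain genes was a member: En2 was at 0.55 and 2 TPM and Pax8 at 3.53 and 0.22 TPM. Of 7 diencephalic genes only Tcf7l2, also an effector of Wnt, was a member, at 20.8 and 27.2 TPM. Irx3 and Irx5 were higher in replicate 2, with Irx5 at 1.12 and 5.44 TPM, whereas Irx1 was at 1.99 and 0.05 TPM.

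**Figure D3:**
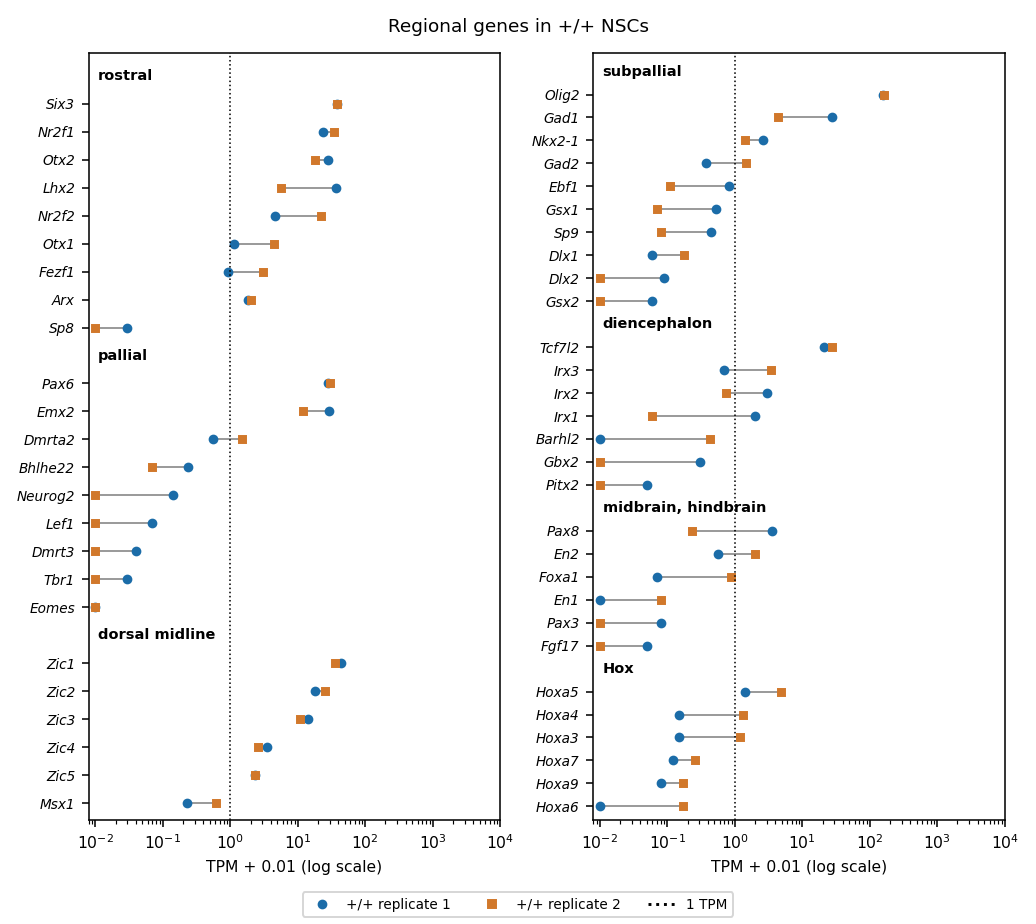
TPM plus 0.01 (x axis, log scale) of regional genes (y axis, grouped by region) in +/+ replicate 1 (blue circles) and replicate 2 (orange squares), joined by a line, with a dotted line at 1 TPM. Six3, Pax6 and the Zic genes overlie or nearly so, whereas Lhx2 runs from 37.4 TPM in replicate 1 to 5.6 TPM in replicate 2 and the Hox genes plotted lie higher in replicate 2.

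The receptors for both mitogens of the medium were expressed, each in a clear order. Among EGF receptors Egfr exceeded Erbb4, a neuregulin receptor at 16.4 and 13.9 TPM, 8.47-fold and 9.26-fold. Erbb2 was at 1.28 and 1 TPM, just inside the threshold, and Erbb3 was at 0.18 and 0.07 TPM. Among FGF receptors Fgfr1 led at 50.1 and 54.4 TPM, followed by the decoy receptor Fgfrl1 at 28.9 and 38 TPM, Fgfr3 at 23.5 and 27.2 TPM and Fgfr2 at 14.7 and 13.2 TPM. Fgfr4 was listed at 0. Values of Fgfr1 and Fgfr3 did not overlap, nor did those of Fgfr3 and Fgfr2.

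The cultures also expressed some ligands of these receptors. Hbegf, a membrane-bound EGF family ligand, was at 28.9 and 50.7 TPM, Tgfa at 4.55 and 5.32 TPM and Btc at 1.21 and 3.87 TPM, and the other 7 EGF ligands were no members. Egf, whose product was supplied in the medium, was at 0.51 and 0.23 TPM. Of 18 genes of the FGF family 5 were members. Fgf1 was at 67.5 and 99.9 TPM and Fgf2, whose product was also supplied, at 2.28 and 1.96 TPM. The other members, Fgf11, Fgf14 and Fgf12, encode intracellular FGF homologous factors and are not counted as ligands of these receptors. Genes that receptor tyrosine kinase signalling induces, many of them feedback inhibitors, were abundant, with 23 of 25 as members. Spry2 was at 360 and 350 TPM, Spred1 at 289 and 407 TPM and Dusp6, an ERK phosphatase, at 187 and 260.1 TPM. The ETS factors Etv5, at 199.8 and 200.7 TPM, and Etv1, at 120.3 and 104 TPM, were also high. Egr1, an immediate early gene, was at 97.5 and 44.7 TPM, and Junb at 0.65 and 0.32 TPM was no member.

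Notch components, some of their ligands among them, and Hedgehog receptors were expressed. Notch1, at 10.3 and 10.1 TPM, exceeded Notch3 2.04-fold and 2.07-fold, Notch2 was at 3.33 and 3.14 TPM, and Notch4 was at 0.14 in both samples. Of 8 ligands 4 were members, with Dner, an atypical ligand, at 25 and 75.5 TPM, Jag1 at 23.3 and 37.1 TPM and Dll1 at 9.48 and 5.72 TPM. The targets Hey1, at 57.5 and 43.4 TPM, and Hes1 exceeded Hes5, at 8.52 and 3.13 TPM. In the Hedgehog pathway 7 of 14 genes were members. Ptch1, the receptor and a target, was at 100.5 and 93.4 TPM, Gas1, a co-receptor, at 112.4 and 75 TPM, and Smo at 28.1 and 22.1 TPM. Shh was at 0.05 and 0 TPM. Of the co-receptors, Cdon was at 24.91 and 0.55 TPM, whereas Boc was at 1.38 and 1.37 TPM. Gli1 was not analysed here, and Gli3 was at 3.03 and 2.21 TPM.

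Wnt and BMP receptors were expressed more widely than their ligands. All 10 Frizzled receptors were members, led by Fzd3 at 76 and 85.1 TPM and Fzd1 at 36.7 and 23.3 TPM. Of 15 Wnt genes 3 were members: Wnt5a at 55.4 and 61.8 TPM, Wnt7b at 20.2 and 19.8 TPM and Wnt7a at 15.1 and 8.4 TPM. Ctnnb1, beta-catenin, was at 590 and 633 TPM, Axin2, a target, at 9.66 and 10.6 TPM, and Lef1 at 0.06 and 0 TPM. Of 12 BMP and TGF-beta receptors, 9 were members, or 75% against 68.6% of all named protein-coding genes. Bmpr1a led them at 201.3 and 184 TPM. Of 23 ligands and antagonists, 9 were members, or 39.1%. Chrdl1, a BMP antagonist, was the highest of the ligands and antagonists at 144.5 and 143.9 TPM, followed by Tgfb2 at 40.1 and 67.4 TPM. Bmp4 was listed at 0, Nog was at 0.07 and 0.1 TPM, and Bmp7 was at 17.6 and 20.4 TPM.

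Of 24 other receptor kinases, 13 were members. Ntrk2, the receptor of BDNF, was at 308 and 299.6 TPM, whereas Bdnf itself was at 4.78 and 1.33 TPM. Insr, the insulin receptor, at 40.9 and 43.9 TPM exceeded Igf1r at 15.9 and 10.8 TPM. Met, the HGF receptor, was at 11.3 and 28.9 TPM. Genes of gp130 cytokine signalling were present, with 8 of 10 as members, among them the kinases Jak1 and Jak2 and the transcription factor Stat3. Among the receptors, Il6st, gp130 itself, was at 62.1 and 56.3 TPM and Lifr at 32.7 and 31.8 TPM. Socs3, their feedback inhibitor, was at 1.13 and 0.53 TPM. Secreted factors were led by Ptn, pleiotrophin, at 283 and 181 TPM, Pros1, a ligand of the TAM receptors, at 145.5 and 190.4 TPM, and Vegfa at 57.2 and 54.5 TPM. Igf1, Cxcl12 and Pdgfb were at 0.03 TPM or less.

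**Figure D4:**
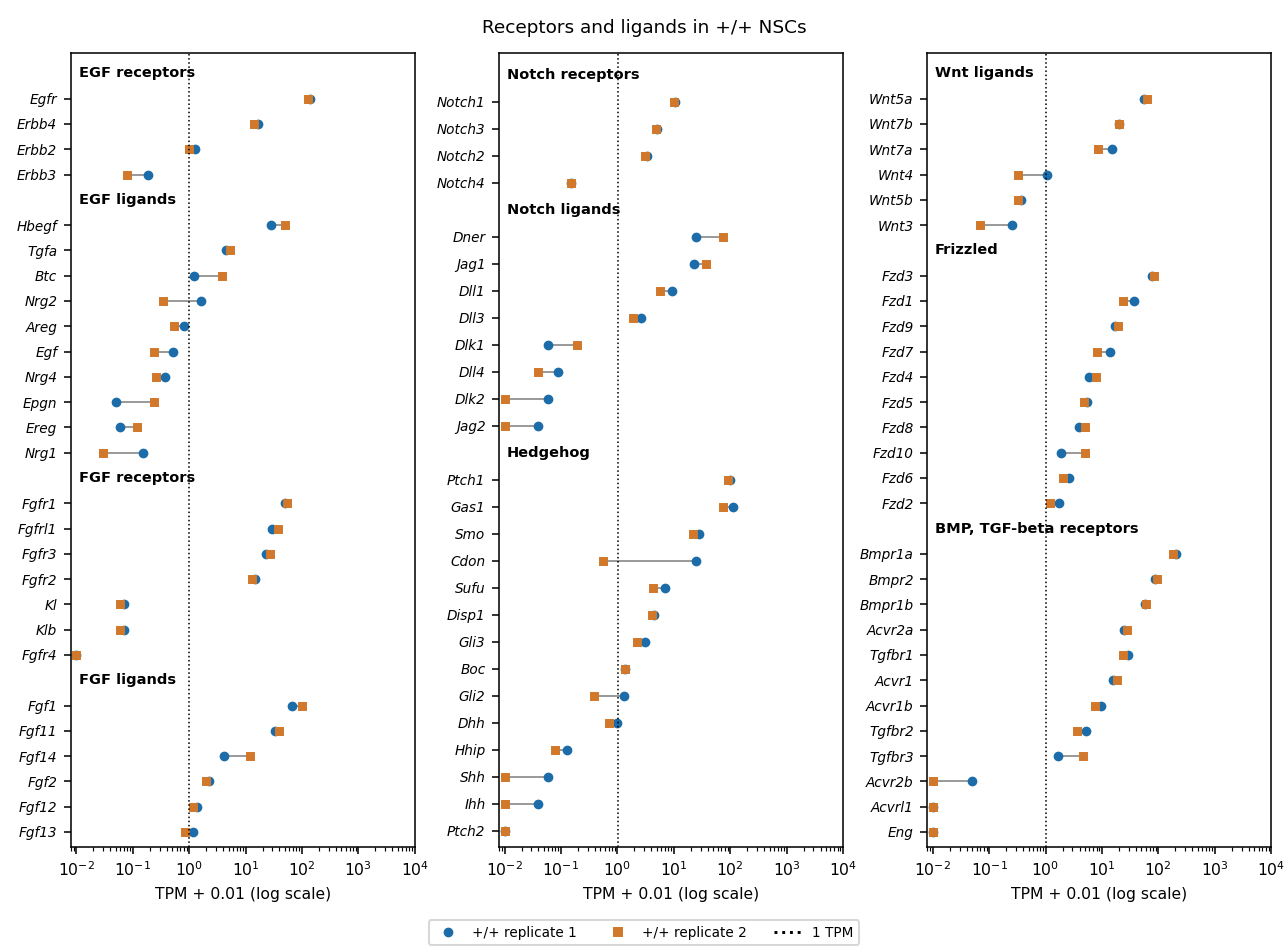
TPM plus 0.01 (x axis, log scale) of receptors, ligands and related genes of 6 pathways (y axis, grouped), with a dotted line at 1 TPM. Blue circles are +/+ replicate 1 and orange squares are replicate 2. Egfr, Fgfr1, Notch1, Fzd3 and Bmpr1a lead their receptor groups in both samples, and Cdon, at 24.91 and 0.55 TPM, has the widest gap among genes that reach 10 TPM.

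Glycolytic enzymes were expressed as particular paralogs. Of 21 genes, 16 were members, or 76.2% against 68.6% of all named protein-coding genes. Pgk1, phosphoglycerate kinase, led at 992 and 975 TPM, followed by Pgam1 at 533 and 659 TPM and Gapdh at 464 and 378 TPM. Hk1 exceeded Hk2, the hexokinase of many tumors, 14.8-fold and 25.4-fold, and Pfkm, at 74.2 and 55.2 TPM, exceeded Pfkp and Pfkl. Aldoc exceeded Aldoa 1.58-fold and 1.53-fold, and Ldha exceeded Ldhb 1.42-fold and 2.33-fold. Pgk2, of the testis, was listed at 0. Glucose transporters were led by Slc2a3 at 28.5 and 36.9 TPM and Slc2a1 at 15.5 and 14.5 TPM, and Slc16a1, a monocarboxylate transporter, was at 82.2 and 107.3 TPM.

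Genes of mitochondrial oxidation were expressed nearly throughout. All 27 genes of pyruvate entry and the TCA cycle were members, with medians of 226 and 196 TPM, from Mpc1, a pyruvate carrier, at 628 and 626 TPM to Pcx, pyruvate carboxylase, at 4.96 and 2.27 TPM. Of 17 genes of fatty acid oxidation, 16 were members, led by Acadl at 702 and 713 TPM and Hadhb at 550.3 and 569 TPM. Cpt1a, which admits fatty acids to mitochondria, was at 121 and 103.8 TPM, and the muscle form Cpt1b was at 0.07 and 0.3 TPM. Glud1, glutamate dehydrogenase, was at 601 and 635 TPM.

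Lipid synthesis was expressed, with uneven levels along the pathways. Scd2, a fatty acid desaturase, was at 1648 and 1390 TPM and exceeded Scd1 6.02-fold and 10.6-fold. Fasn, fatty acid synthase, was at 12.1 and 7.47 TPM. Of 22 genes of cholesterol synthesis, 20 were members and 19 of these were higher in replicate 1, where 66.9% of all members were, and 19 were so with median-of-ratios scaling. Hmgcs1, at the start of the pathway, was at 603 and 459 TPM and Msmo1 at 272 and 221 TPM, whereas Tm7sf2, a sterol reductase, was at 7.78 and 3.23 TPM. Mvk and Mvd, of the mevalonate steps, were at 1.49 and 0.85 TPM and at 1.56 and 0.56 TPM. Among fatty acid binding proteins Fabp7 exceeded Fabp5, at 436 and 416 TPM, 13.5-fold and 10.4-fold. Fabp3 was at 2.51 and 2.21 TPM, and Fabp4, of fat cells, at 0 and 0.18 TPM.

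Biosynthesis of serine and folate metabolites and defence against oxidation were also represented. Of 15 serine and folate genes, 14 were members. Psat1, the aminotransferase of serine synthesis, was at 180.6 and 107 TPM and Phgdh, which opens that pathway, at 24 and 14.1 TPM. All 25 redox genes were members, and after Txn1 came Prdx1, a peroxiredoxin, at 1150 and 1129 TPM and Sod1 at 462 and 271 TPM. In contrast, none of 7 liver and gut metabolic genes passed. Cyp2e1 was highest of these at 0.67 and 0.5 TPM, and Alb, albumin, was at 0 and 0.05 TPM.

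**Figure D5:**
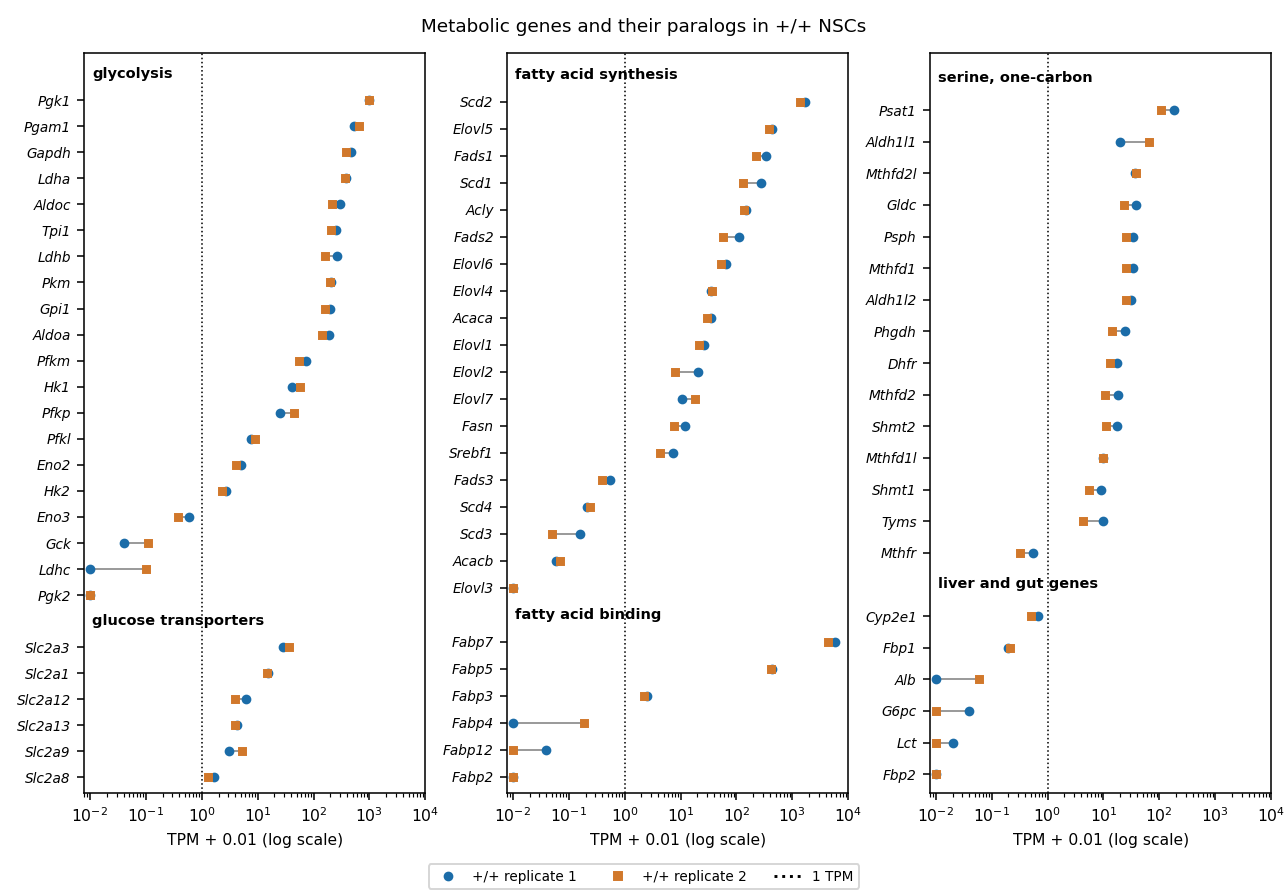
TPM plus 0.01 (x axis, log scale) of metabolic genes (y axis, grouped) in +/+ replicate 1 (blue circles) and replicate 2 (orange squares), with a dotted line at 1 TPM. Paralogs spread over several orders of magnitude, as with Scd2 at 1648 and 1390 TPM and Scd3 and Scd4 under 1 TPM. No glycolysis member is 2-fold or more apart on log2(TPM + 1), whereas Aldh1l1, at 19.4 and 66.5 TPM, and Scd1, at 273.7 and 130.8 TPM, are.

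Surface antigens used to sort neural cells were expressed at widely different levels. Of 41 CD and sorting antigens, 27 were members, or 65.9% against 68.6% of all named protein-coding genes. Cd63 was highest at 1029 and 1089 TPM, followed by Cd81 at 555 and 697 TPM, Itgb1, integrin beta 1, at 489 and 525 TPM and Cd9 at 411 and 395 TPM. Cd44, a hyaluronan receptor, was at 78.4 and 177.6 TPM and Cd36, a fatty acid receptor, at 121.2 and 267 TPM. Cd24a, used to separate neuroblasts, was at 66.9 and 38.4 TPM. Fut4, the enzyme of the Lewis X antigen, was at 1.42 and 2.64 TPM. Cd4, Eng, Epcam and L1cam were at 0.11 TPM or less. Itgav and Itgb8, which together bind latent TGF-beta, were at 202.4 and 288 TPM and at 213 and 202 TPM, and Itgb4 was at 0.02 and 0.61 TPM.

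Matrix genes were led by brain proteoglycans. Of 31 proteoglycan and matrix genes, 21 were members, or 67.7% against 68.6% of all named protein-coding genes. After Ptprz1 came Cspg5 at 502 and 343 TPM and Ncan, neurocan, at 248.7 and 255.9 TPM. Acan, aggrecan of cartilage, was at 0.04 and 0 TPM. Of 42 collagens, 10 were members, with Col4a5, of basement membranes, highest at 43.7 and 59.7 TPM. The fibrillar collagens Col11a1, at 31.4 and 44.8 TPM, and Col5a2, at 25 and 37.8 TPM, came next, whereas Col3a1 was at 0.04 and 0 TPM. Cadherins were led by Cdh20 at 154.4 and 130.6 TPM and Cdh2, N-cadherin, at 144.9 and 111.9 TPM, and the values of these 2 genes overlapped between the samples.

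Channels and transporters followed a glial pattern of paralogs. Gja1, connexin 43, was at 179.7 and 386 TPM and was the leading gap junction gene, with Gjc3 next at 53.2 and 42.1 TPM. Slc6a11, which takes up GABA, was at 282 and 173 TPM. Slc1a3 exceeded the other glial glutamate transporter, Slc1a2, 5.73-fold and 4.64-fold. Atp1b2, the glial beta subunit of the sodium pump, exceeded Atp1b1 3.91-fold and 4.62-fold. Of 29 ionotropic receptor genes, 14 were members. Gabrg1 led at 115.4 and 162.4 TPM. Gria2, an AMPA receptor subunit, was at 116.3 and 25.5 TPM, and the NMDA receptor gene Grin1 was at 0.47 and 0.06 TPM.

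The cytoskeleton and ribosome were built from genes of high level. Of 13 tubulins, 10 were members, led by Tuba1a at 668 and 595.5 TPM, Tuba1b at 371 and 258.7 TPM and Tubb2b at 228 and 218 TPM. Actg1, at 715 and 752 TPM, exceeded Actb at 498 and 377 TPM. Of 83 cytosolic ribosomal protein genes, 82 were members, with medians of 440 and 291 TPM, and 81 of the 82 were higher in replicate 1, where 66.9% of all members were. Their median difference was -0.60 on log2(TPM + 1), and -0.40 after the median of each GC decile was subtracted. With that subtraction, and with median-of-ratios scaling, 79 of the 82 were higher in replicate 1. The exception outside the members was Rpl3l, of muscle, at 0.07 and 0.1 TPM. The S100 genes went the other way, with 6 of 7 members higher in replicate 2 under either scaling, among them S100a10 at 247 and 484 TPM and S100a11 at 117 and 266 TPM.

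Listed genes near the threshold show how its place decides membership. Just inside were Chrnb2 at 1.2 and 1 TPM, Erbb2 at 1.28 and 1 TPM and Sema5b at 3.06 and 1 TPM. Just outside were Prom1 at 0.99 and 4.15 TPM, Epha7 at 0.97 and 6.73 TPM and Kit at 4.25 and 0.97 TPM. The mean of several of the outer genes exceeded that of the inner ones, because the rule uses the lower of the 2 values.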

How the data were processed

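RNA was sequenced from 2 +/+ NSC cultures. The authors deposited TPM values with 2 decimals for 18169 rows, and per the labels the reads were processed with Bowtie2 2.2.3 and RSEM 1.2.20 on mm10; the gene annotation is not given in the sources used here. The number of reads behind the TPM is unknown, so no counting error was attached. Names were matched to GENCODE M21 and RefSeq (GRCm38), by GENCODE symbol for 16127 names and by RefSeq symbol or synonym for 686; 1133 names were unmatched. The row of highest mean TPM was kept for 150 protein-coding names with more than 1 row. Zero values are listed zeros and may be failed estimates. Replicates were compared on log2(TPM + 1), with no test.

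The members and the 98 gene lists and families were chosen with earlier results of these data known. Named genes were the 5 markers, the 20 most abundant, list members (preferring the 4 highest and defining genes under 1 TPM), the 5 members farthest apart each way with at least 10 TPM in 1 sample, listed genes nearest 1 TPM, Chd5 and sex-linked genes, and a few such genes are left out here. Genes without a row were not analysed here. GC content and length were those of the longest GENCODE transcript. Promoters were the 250 bases before the most upstream RefSeq start. Functions were tested on simulated data. Alternatives were minima of 0.5, 5 and 10 TPM, a mean of 1 TPM, summed rows, rescaling, a pseudocount of 0.1, each sample alone and, chosen after seeing the data, subtraction of GC decile medians. Python 3.11.15, pandas 2.3.3 and numpy 2.4.6 were used.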

Additional observations from a re-analysis of the deposited data

Results flagged for a closer look

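Signal outside the named protein-coding genes was large. Rows whose names matched no annotated gene held 28.1% of the TPM in +/+ replicate 1 and 32.4% in replicate 2, most of it in 7 rows, which held 24.5% and 28.4%. Mir703, a row named for a microRNA, was at 19799 and 17172 TPM in these libraries of polyadenylated RNA, near the level of Eef1a1. What these rows count was not tested, and they lower the TPM of every named gene by filling the fixed total.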

How the results depend on the processing

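Levels depend on what the TPM total includes, and the number of members on the minimum. Rescaled to named protein-coding genes, Nes was at 118, Vim at 2134, Egfr at 199.8, Fabp7 at 7582 and Sox2 at 657 TPM (means), and the 20 most abundant genes held 9.61% of the total against 6.45% on all rows. A minimum of 10 TPM left 6704 members, and of 5 TPM 8265. Single samples gave 10904 and 11023 members. Members 2-fold or more apart between the replicates numbered 340, and 112 with a minimum of 10 TPM or 524 with a pseudocount of 0.1. They numbered 331 after the GC decile medians were subtracted, an alternative chosen after seeing the data. Of 95 lists, 88 had a count of members within 1.5 times without replicate 1 and 88 without replicate 2, 85 with a minimum of 0.5 TPM and 63 with a minimum of 5 TPM. No paired analysis was possible because a single group was described and nothing was tested. Unknown depth limits what can be said of values under 1 TPM.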

Other observations

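Families of transcription factors outside the regional lists were expressed to different extents. All 4 Nfi genes, of glial differentiation, were members, led by Nfib at 101.8 and 125.9 TPM, as were all 4 Id genes and all 5 Etv genes. Of 16 Sox genes 12 were members, or 75% against 68.6% of all named protein-coding genes. After Sox2 and Sox9 came Sox6 at 46.5 and 49.6 TPM and Sox8 at 58.9 and 36.5 TPM. Pou3f3 led 9 POU genes at 85.5 and 62.7 TPM. None of 12 T-box genes, 3 Gata genes and 4 Dlx genes was a member, and the highest of their values was 0.29 TPM, in Tbx2.

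Guidance and junction genes also differed by paralog. Of 20 semaphorins 10 were members, with Sema6d at 77 and 85.9 TPM, and of 12 claudins 3, with Cldn12 at 106.7 and 108.5 TPM. Epha5 led the Eph receptors at 59 and 21.4 TPM. Of 26 olfactory receptor genes, which serve here as genes not known for a role in these cells, 2 were members, with Olfr288 highest at 5.73 and 8.58 TPM. Of 8 keratins only Krt10 was a member, at 5.39 and 5.85 TPM.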
